A study of Mus musculus with 8 samples.

Results

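The 5 genes for the receptors of vascular endothelial growth factor (VEGF) were Flt1 (VEGFR-1), Kdr (VEGFR-2), Flt4 (VEGFR-3), Nrp1 and Nrp2. They were taken by name from the mm9 gene models of GENCODE vM1, and all 5 were found among 22359 protein-coding genes. Their chromatin was profiled in isografts of Lewis lung carcinoma (LLC), a mouse lung tumor cell line. LLC-NR tumors are sensitive to VEGF-Trap, a soluble decoy that binds VEGF, and LLC-R cells had been selected for resistance to it during repeated treatment in mice. Both lines were grown under the skin of the flank of 6- to 8-week-old female C57BL/6J mice, 10 mice per line, although the labels name lung as the tissue. Nucleosomes released with micrococcal nuclease were immunoprecipitated with antibodies against H3K4me3, H3K9ac, H3K27me3 or H3K36me3, with 1 library per line and mark and 8 in all. There were no replicates, so no test between the lines was possible, and the sources used here do not say how many tumors went into a library or whether the mice of either line were treated before harvest.

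Every library is a list of nucleosome-sized peaks of 147 bp, without heights. The 8 lists hold 5660458 to 9101721 peaks and cover 31.3% to 50.4% of the genome. A level is therefore a number of peaks, which is limited by how many nucleosomes fit, and each level is given with its percentile among all protein-coding genes of the same library. Whether these percentiles depend on the depth of sequencing was not tested. Intervals are exact 95% intervals for counting error and do not include variation between tumors. They treat peaks as independent, although peaks of a library cannot overlap and vary less, which makes the intervals wide. The isografts contain tumor cells and host cells, and a lower share of a cell type cannot be told apart from a lower level of a mark in its cells.

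VEGFR-1, VEGFR-2 and VEGFR-3 are receptor tyrosine kinases. VEGFR-2 carries most of the mitogenic signal of VEGF-A in endothelial cells, VEGFR-1 binds VEGF-A tightly and also exists as a secreted form that traps it, and VEGFR-3 is the receptor of VEGF-C and VEGF-D in lymphatic endothelium. Neuropilins have no kinase. They are coreceptors that bind VEGF and class 3 semaphorins, and they are found on many cell types besides endothelium, carcinoma cells included. H3K4me3 and H3K9ac are marks of active promoters, H3K36me3 is laid down over the body of transcribed genes, and H3K27me3 is the mark of Polycomb repression.

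The 5 genes lie on 4 chromosomes. In mm9, Flt1 (ENSMUSG00000029648.7) lies at chr5:148373180-148537587 on the minus strand and Kdr (ENSMUSG00000062960.6) at chr5:76328852-76374483 on the minus strand. Flt4 (ENSMUSG00000020357.3) lies at chr11:49422765-49466241, Nrp1 (ENSMUSG00000025810.8) at chr8:130882973-131029362 and Nrp2 (ENSMUSG00000025969.9) at chr1:62749859-62865269, all on the plus strand. Gene bodies span 164 kb in Flt1, 45.6 kb in Kdr, 43.5 kb in Flt4, 146.4 kb in Nrp1 and 115 kb in Nrp2. All 5 promoters are CpG-rich by the rule of the study, as are 54.2% of all promoters.

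The 200 bp before the most upstream TSS of each gene are shown because the promoters differ in base composition and in the motifs they hold. They are mm9 sequence on the strand of the gene, and capitals mark matches on either strand to the GC box (GGGCGG), the core of hypoxia response elements (ACGTG or GCGTG), the ETS core (CGGAAG or AGGAAG), the GATA core (AGATAA) and the TATA box (TATAAA). In Flt1 and Nrp2, the most upstream TSS lies 23 and 417 bp before the TSS used for counting.
Flt1, chr5:148537588-148537787, minus strand: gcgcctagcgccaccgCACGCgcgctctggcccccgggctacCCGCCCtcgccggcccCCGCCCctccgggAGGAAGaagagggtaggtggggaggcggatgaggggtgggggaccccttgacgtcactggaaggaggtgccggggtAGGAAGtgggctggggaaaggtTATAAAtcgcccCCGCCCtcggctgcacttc
Kdr, chr5:76374484-76374683, minus strand: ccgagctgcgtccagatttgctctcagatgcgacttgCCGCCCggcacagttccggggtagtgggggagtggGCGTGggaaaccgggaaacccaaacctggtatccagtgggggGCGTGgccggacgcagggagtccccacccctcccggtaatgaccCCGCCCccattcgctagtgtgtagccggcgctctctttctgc
Flt4, chr11:49422565-49422764, plus strand: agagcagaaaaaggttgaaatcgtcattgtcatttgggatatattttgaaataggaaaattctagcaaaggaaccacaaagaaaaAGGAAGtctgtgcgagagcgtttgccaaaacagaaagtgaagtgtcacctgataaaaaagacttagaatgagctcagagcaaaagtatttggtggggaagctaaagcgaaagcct
Nrp1, chr8:130882773-130882972, plus strand: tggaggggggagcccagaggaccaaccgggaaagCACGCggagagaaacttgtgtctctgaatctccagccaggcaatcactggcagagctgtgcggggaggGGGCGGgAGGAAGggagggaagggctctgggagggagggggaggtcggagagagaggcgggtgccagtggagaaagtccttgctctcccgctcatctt
Nrp2, chr1:62749659-62749858, plus strand: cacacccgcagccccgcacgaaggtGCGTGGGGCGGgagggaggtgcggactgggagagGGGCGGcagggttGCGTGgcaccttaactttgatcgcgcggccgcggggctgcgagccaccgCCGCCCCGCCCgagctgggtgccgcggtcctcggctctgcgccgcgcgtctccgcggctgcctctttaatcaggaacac

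Flt4 stands apart among these sequences. Its 200 bp have a G+C content of 38.5% and 4 CpG dinucleotides, against 64% to 73.5% and 8 to 27 CpG dinucleotides in the other 4 genes. The median over all genes was 7 CpG dinucleotides. A GC box and a hypoxia core were found in Flt1, Kdr, Nrp1 and Nrp2 and not in Flt4. A GC box was present in 38.5% of all such regions and a hypoxia core in 38.3%, so neither is particular to these genes. Adjacent matches in Nrp2 overlap or touch, as in the 2 GC boxes from -79 to -69 that share a base. An ETS core was found in Flt1, Flt4 and Nrp1, against 35.6% of all regions. The TATA box of Flt1, from -31 to -26, was the single one among the 5 genes, and 10.04% of all regions held one. No GATA core was found in these windows, and 6.97% of all regions held one. These are matches of letters, and binding was not measured.

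The promoters, which reach 1 kb before and 0.5 kb past the TSS, held peaks of both active and repressive marks in all 5 genes. Over the 8 libraries, the Nrp1 promoter held 52 peaks, Kdr 43, Flt1 and Nrp2 41 each and Flt4 23, against a mean of 38.1 over all promoters. The mean over all promoters was 4.91 peaks of H3K4me3 for LLC-NR and 4.61 for LLC-R, and no promoter held more than 9.

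For H3K4me3, the Flt1 promoter held 6 peaks in LLC-NR against 7 in LLC-R, percentiles 64.2 and 91.8. The Kdr promoter held 6 and 4 peaks (percentiles 64.2 and 33.1). Nrp1 held 8 and 5 (percentiles 97.0 and 52.1). Nrp2 held 5 peaks in both lines (percentiles 44.5 and 52.1), and Flt4 held 3 in both (percentiles 18.6 and 19.5). Flt4 was the lowest of the 5 in both lines. These percentiles moved with the background and the window. Among CpG-rich promoters alone, Kdr was at 43.1 and 10.9, Nrp2 at 18.8 and 29.0 and Flt4 at 3.09 and 3.87. Flt1 and Nrp1 were also lower there than among all promoters. Counted from 2 kb upstream to 2 kb downstream among all promoters, Nrp2 was at percentile 97.5 in LLC-R. The exact Poisson interval of a count of 6 peaks runs from 2.20 to 13.1. It treats peaks as independent and is too wide here, since no promoter held more than 9. Whether differences of 1 to 3 peaks exceed counting error could not be decided.

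H3K9ac, the acetylation found at active promoters, gave a different order. Kdr held 6 peaks in both lines (percentiles 54.3 and 72.0), and Flt1 held 4 in both (percentiles 15.1 and 22.0). Nrp1 held 7 in LLC-NR and 6 in LLC-R (percentiles 82.6 and 72.0). Nrp2 also held 7 in LLC-NR but 4 in LLC-R (percentiles 82.6 and 22.0). Flt4 held 4 and 2, the latter at percentile 6.93. Flt1 was thus above the mean for H3K4me3 and below it for H3K9ac in both lines.

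For H3K27me3, the promoters of Flt1, Kdr and Nrp2 each held 7 peaks in LLC-NR, which is percentile 92.4 (mean over all promoters 4.56). In LLC-R, where the mean was 5.45, Flt1 held 6 peaks (percentile 57.1), and Kdr and Nrp2 held 5 (percentile 30.7). Nrp1 held 6 in LLC-NR and 7 in LLC-R (percentiles 76.1 and 84.2). Flt4 held 4 in both (percentiles 34.3 and 15.2). These 3 promoters were thus above percentile 90 in the LLC-NR library, and below percentile 75 in the LLC-R library. These percentiles moved with the window. From 2 kb upstream to 2 kb downstream, Kdr was at percentile 82.2 in LLC-NR and 73.7 in LLC-R. Nrp2 was at 73.1 in LLC-NR with 0.5 kb on either side, and at 57.1 in LLC-R with the most upstream TSS.

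H3K36me3 is a mark of gene bodies, and its numbers in promoters were lower in LLC-NR, with a mean of 3.19 peaks against 4.96 in LLC-R. Nrp1 held 7 peaks in LLC-NR, at percentile 99.2, and 6 in LLC-R, at percentile 72.6. Flt4 held 0 in LLC-NR and 3 in LLC-R. Flt1 held 4 and 3, Kdr 3 and 6, and Nrp2 4 in both lines.

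A promoter is called active here when H3K4me3 or H3K9ac is above the mean of all promoters and H3K27me3 is not, bivalent when both kinds are above it, and none when neither is. In LLC-NR, Flt1, Kdr, Nrp1 and Nrp2 were bivalent, a state of 48.5% of all promoters. In LLC-R, Flt1 and Nrp1 were again bivalent (53.0% of all promoters), and Kdr and Nrp2 were active (28.3%). Flt4 was in the state none in both lines, with 13.6% and 12.98% of all promoters. The change of Kdr and Nrp2 rests on 7 against 5 peaks of H3K27me3 around a mean that itself was higher in LLC-R.

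**Figure D1:**
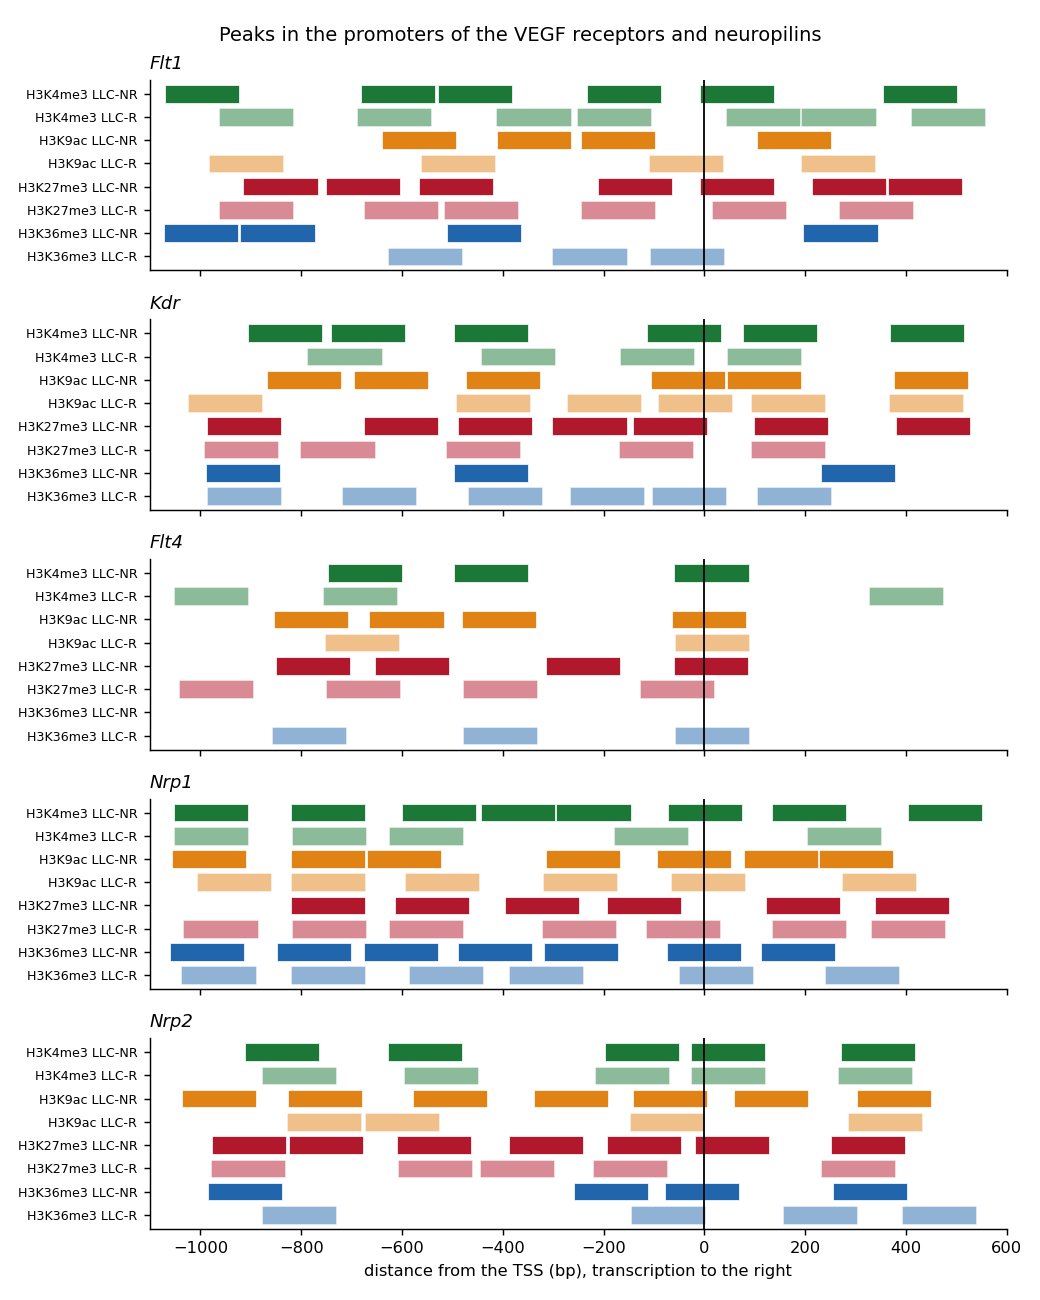
Peaks in the promoters of the 5 genes, drawn to scale as bars of 147 bp against distance from the TSS in bp, with 1 row per library, full colour for LLC-NR and pale colour for LLC-R. Nrp1 is covered by most marks, Flt4 has few peaks and none of H3K36me3 in LLC-NR, and 7 of the 8 libraries share a position in Nrp1 near -746 bp.

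The plot of peaks in promoters also shows where peaks were placed. In the Nrp1 promoter, midpoints between -746 and -744 bp were found in 7 of the 8 libraries, all but H3K36me3 of LLC-NR. A position shared by 7 or more libraries within 5 bp occurred in 1.32% of promoters. This share is not adjusted for the number of peaks, which was 52 in Nrp1 against a mean of 38.1. No input library was used, and the reason for the shared position was not tested. In the other genes, the best position was shared by 4 libraries (Flt4, 44.8% of promoters had as many), 3 (Kdr and Nrp2, 83.2%) and 2 (Flt1, 96.0%). The 147 bp at the shared peak position of Nrp1, labelled as a nucleosome below, have a G+C content of 58.5% and 7 CpG dinucleotides. The capital marks the midpoint.
Nrp1 nucleosome, chr8:130882154-130882300, plus strand: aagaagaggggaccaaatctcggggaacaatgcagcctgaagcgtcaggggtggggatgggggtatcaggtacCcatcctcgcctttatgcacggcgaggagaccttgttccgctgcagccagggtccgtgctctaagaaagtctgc

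From LLC-NR to LLC-R, the 5 promoters shared a smaller part of their positions than all promoters did for every mark, with wide intervals. Of the 28 H3K4me3 midpoints of the 5 promoters in LLC-NR, 8 had a midpoint within 20 bp in LLC-R (28.6%, interval 13.2% to 48.7%), against 37.6% over all promoters. For H3K9ac, 9 of 28 were shared (32.1%, interval 15.9% to 52.4%), against 40.3%. For H3K27me3, 9 of 31 were shared (29.0%, interval 14.2% to 48.0%), against 35.3%. For H3K36me3, 2 of 18 were shared (11.1%, interval 1.38% to 34.7%), against 33.9%. Each interval holds the value of all promoters, but the intervals are too wide to show that the shares are alike. Counted from LLC-R to LLC-NR, the shares were also lower than over all promoters, apart from H3K27me3 (33.3% against 29.6%). For H3K36me3, 1 of 22 was shared in that direction (4.55%, interval 0.115% to 22.8%), against 21.8%. Among the genes, Nrp2 kept 3 of 5 H3K4me3 positions and Kdr 0 of 6.

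The distance between the peaks on either side of the TSS was below the median of all promoters in 7 of the 8 libraries in Kdr. The same held in 7 of 8 in Nrp1, and Flt4 was above the median in 7 of 8. The exceptions were H3K36me3 of LLC-NR in Kdr (727 bp, percentile 55.7) and H3K4me3 of LLC-R in Nrp1 (383 bp, percentile 62.1). In Flt4 it was H3K27me3 of LLC-NR (254 bp, percentile 30.5). Most distances of Nrp2 were also below the median, and how many of all promoters had as many was not counted. In Kdr, H3K9ac midpoints lay at -32 and 119 bp in LLC-NR, a distance of 151 bp that was at percentile 1.11 of all promoters, and at -18 and 165 bp in LLC-R (183 bp, percentile 8.20). Peaks of 147 bp at the first of these distances nearly touch. In Flt4, H3K4me3 midpoints lay 437 bp apart in LLC-NR (percentile 74.2) and 1084 bp apart in LLC-R (percentile 93.6), and H3K36me3 midpoints lay 3666 bp apart in LLC-NR (percentile 99.7).

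Gene bodies, from the TSS to the end of the gene, give larger counts and smaller errors. In LLC-NR, the 3 VEGF receptors had high H3K27me3 and middle to low H3K36me3. Nrp2 had middle H3K27me3 and high H3K36me3, and Nrp1 was high in both. The contrast was weaker in LLC-R, with Kdr and Flt4 at percentiles 65.0 and 65.9 for H3K27me3 and Nrp1 at 64.6 for H3K36me3. The plot of gene body percentiles gives all 40 values.

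H3K27me3, the Polycomb mark, was above the median in both lines in 4 of the 5 genes. Nrp1 had 3.93 peaks per kb in LLC-NR (interval 3.62 to 4.27, percentile 85.2) and 4.30 in LLC-R (interval 3.97 to 4.65, percentile 86.1). Flt1 had 3.81 (interval 3.52 to 4.12, percentile 81.2) and 4.26 (interval 3.95 to 4.59, percentile 83.1). Both genes were above percentile 75 in both lines, with 2.71 and 3.78 peaks per kb as the medians of the LLC-NR and LLC-R libraries. Kdr had 3.84 and 3.99 peaks per kb (percentiles 81.9 and 65.0). Flt4 had 3.82 and 4.002 (percentiles 81.3 and 65.9). The intervals of these 2 shorter genes were wide in LLC-R, from percentile 26.4 to percentile 96.2 in Kdr. Nrp2 had 2.67 peaks per kb in LLC-NR (interval 2.38 to 2.99, percentile 48.6) and 3.72 in LLC-R (interval 3.38 to 4.09, percentile 45.6). The interval of Nrp2 in LLC-NR lay below those of the other 4 genes, while in LLC-R the intervals overlapped.

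H3K36me3, the mark of transcribed gene bodies, was highest in Nrp2 and lowest in Flt4. Nrp2 had 4.12 peaks per kb in LLC-NR (interval 3.76 to 4.51, percentile 94.7) and 4.23 in LLC-R (interval 3.86 to 4.62, percentile 76.8). Nrp1 had 3.71 (interval 3.40 to 4.03, percentile 77.8) and 4.11 (interval 3.78 to 4.45, percentile 64.6). The 2 neuropilins were the highest of the 5 genes in both lines, and their intervals overlapped each other. Flt1 had 2.80 peaks per kb in LLC-NR (interval 2.55 to 3.07, percentile 43.1) and 3.88 in LLC-R (percentile 45.6). Kdr had 2.74 (interval 2.28 to 3.26, percentile 40.6) and 3.81 (percentile 41.2). Flt4 had 2.12 (interval 1.71 to 2.60, percentile 20.6) and 3.45 (percentile 23.0). The VEGF receptors were below the median of 2.99 peaks per kb in LLC-NR and of 3.93 in LLC-R. In LLC-NR, the intervals of the neuropilins lay above those of the receptors, and in LLC-R the intervals overlapped.

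**Figure D2:**
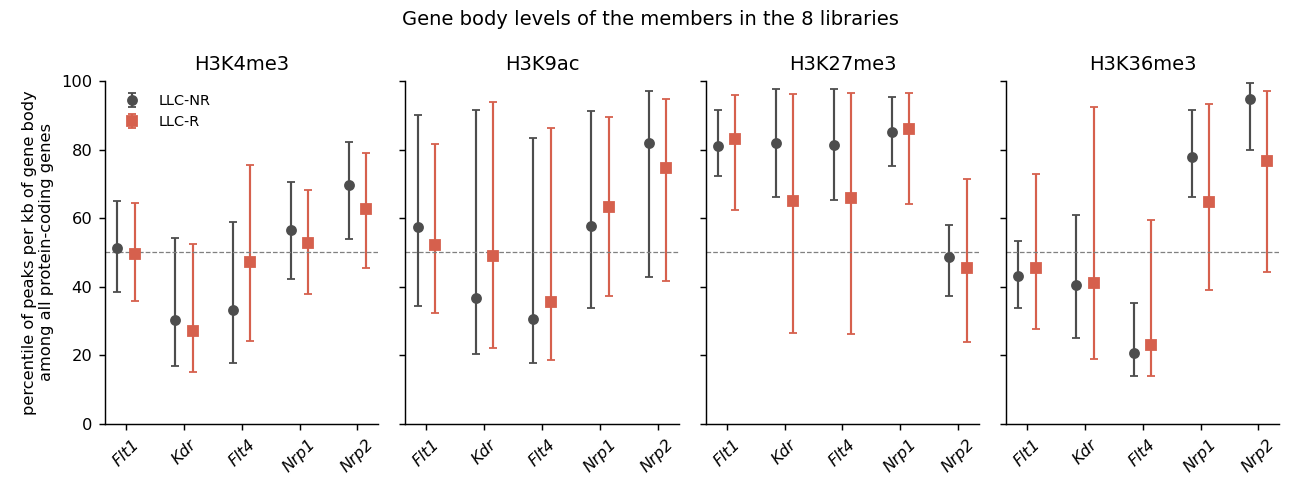
Percentile of peaks per kb of gene body among all protein-coding genes of the same library, for each gene, mark and line, with bars for the exact 95% counting interval and a dashed line at the median. Nrp2 is highest for H3K36me3 (94.7 and 76.8) and lowest for H3K27me3 (48.6 and 45.6), and Flt4 is lowest for H3K36me3 (20.6 and 23.0).

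Over gene bodies, H3K4me3 and H3K9ac were also highest in Nrp2. For H3K4me3, Nrp2 had 3.07 peaks per kb in LLC-NR and 2.90 in LLC-R (percentiles 69.8 and 62.8), and Kdr had 2.28 and 2.24 (percentiles 30.2 and 27.1). Flt1 (percentiles 51.3 and 49.4) and Nrp1 (56.4 and 52.7) were near the middle. Flt4 was at percentile 33.1 in LLC-NR and 47.1 in LLC-R. For H3K9ac, the percentiles ran from 30.7 (Flt4) to 82.0 (Nrp2) in LLC-NR and from 35.6 (Flt4) to 74.6 (Nrp2) in LLC-R. Nrp2 was thus highest of the 5 genes for H3K4me3, H3K9ac and H3K36me3 and lowest for H3K27me3 in both lines.

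Since the peaks of both marks are counted over the same gene, their ratio does not depend on gene length. This ratio was chosen after the levels had been seen. In LLC-NR, Flt4 had 92 H3K36me3 and 166 H3K27me3 peaks, a ratio of 0.554 that lies at percentile 2.31 of genes of 20 kb or longer. Kdr had 125 and 175 (0.714, percentile 17.9). Flt1 had 461 and 627 (0.735, percentile 21.2). The ratio was 0.943 in Nrp1 (percentile 41.5) and 1.54 in Nrp2 (percentile 69.0), against a median of 1.16. In LLC-R, with a median of 1.04, Flt4 was at 0.862 (percentile 7.47), Flt1 at 0.910 (percentile 22.3), Nrp1 at 0.954 (percentile 34.4), Kdr at 0.956 (percentile 34.9) and Nrp2 at 1.14 (percentile 70.9). Flt4 was the lowest and Nrp2 the highest in both lines, and Nrp2 was the single gene above the median.

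**Figure D3:**
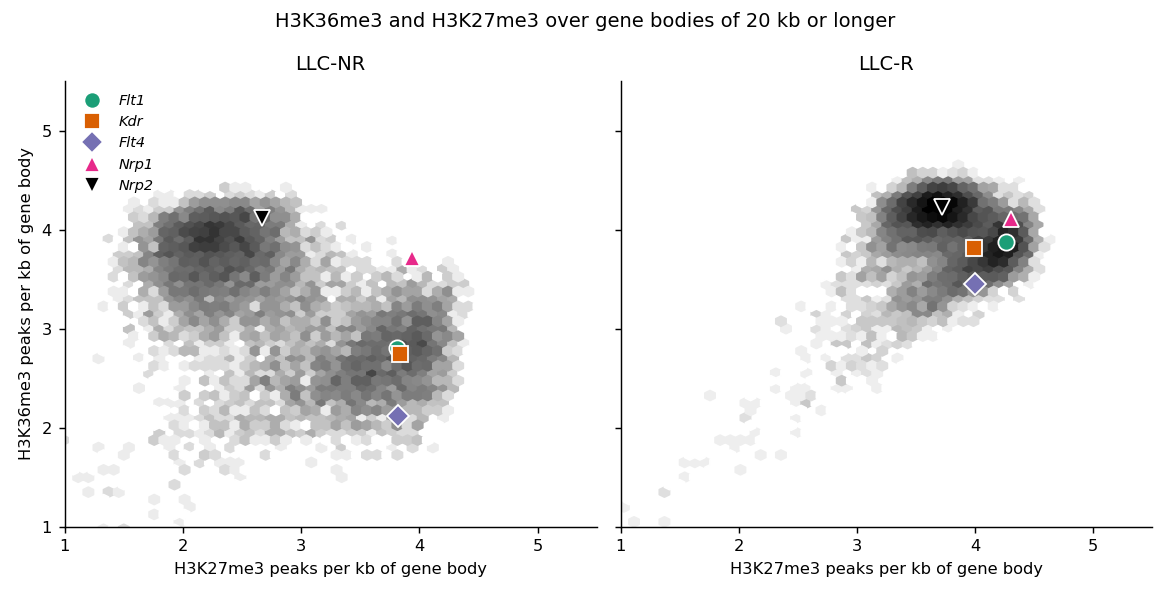
H3K36me3 against H3K27me3 in peaks per kb of gene body for all protein-coding genes of 20 kb or longer, in LLC-NR and LLC-R, with darker grey for more genes on a log scale. In LLC-NR the genes form a cloud rich in H3K36me3, where Nrp2 lies, and a cloud rich in H3K27me3, where Flt1, Kdr and Flt4 lie, with Nrp1 beside both.

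In the plot of H3K36me3 against H3K27me3, Nrp1 has 3.71 H3K36me3 and 3.93 H3K27me3 peaks per kb in LLC-NR. Among 9610 genes of 20 kb or longer, 10 (0.104%), Nrp1 included, were at or above its level in both marks, and 90 (0.937%) were in LLC-R. These counts use the levels of Nrp1 itself as the corner and are a description. Its surroundings were lower in both marks. The 1 Mb on either side of Nrp1 had 2.74 H3K36me3 and 3.27 H3K27me3 peaks per kb in LLC-NR, so that the gene body was 1.35 and 1.204 times its surroundings. In LLC-R, these ratios were 1.18 and 1.15. Part of the surroundings of Nrp1 is unsequenced, and 1710 kb of known bases were used.

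Nrp2 was set off from its neighbourhood. The 1 Mb on either side had 3.68 H3K27me3 peaks per kb in LLC-NR, and the gene body was 0.726 times that level. For H3K36me3, the gene body was 1.32 times its surroundings. In LLC-R, the ratios were 0.933 and 1.13. The same step was seen at the TSS of Nrp2. In LLC-NR, the 20 kb upstream held 88 H3K27me3 peaks and the 20 kb downstream 50, a log2 ratio of -0.82 (interval -1.35 to -0.30, percentile 6.74 of genes of 20 kb or longer). In LLC-R, they held 87 and 76 peaks, a log2 ratio of -0.20 (interval -0.66 to 0.27, percentile 18.1). The step was lower downstream in both lines, and its interval includes 0 in LLC-R. H3K36me3 stepped the other way in LLC-NR, with 54 peaks upstream and 78 downstream (log2 ratio 0.53, interval 0.01 to 1.06, percentile 86.4). In LLC-R, the numbers were 81 and 82 (log2 ratio 0.02, interval -0.44 to 0.48). Whether the steps of the lines differ could not be tested. In Flt1, Kdr and Nrp1, H3K27me3 had log2 ratios across the TSS from -0.14 to 0.13 and every interval including 0.

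**Figure D4:**
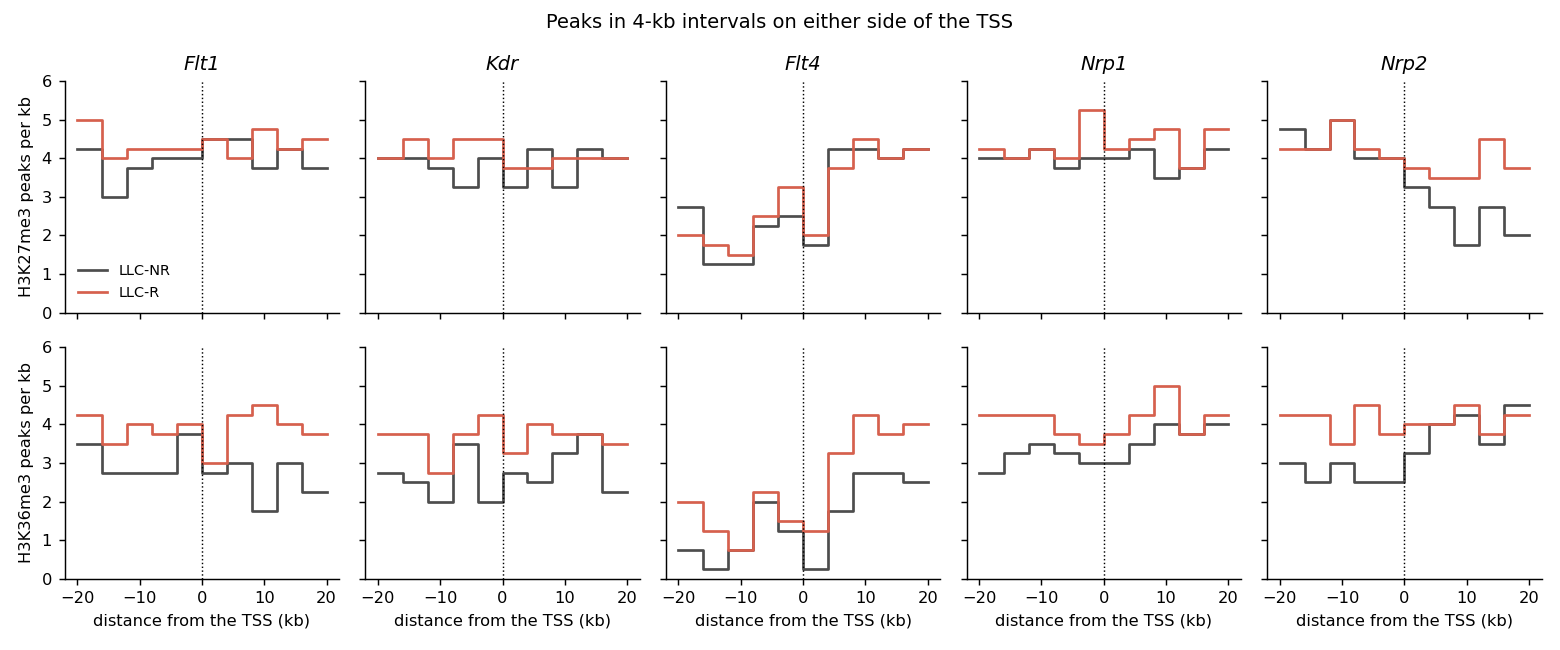
H3K27me3 and H3K36me3 peaks per kb in 4-kb intervals within 20 kb of the TSS of each gene, upstream to the left, with grey for LLC-NR and red for LLC-R. In LLC-NR, Nrp2 goes from 4 to 5 H3K27me3 peaks per kb upstream to 1.75 to 3.25 downstream, and Flt4 is low in both marks upstream and in the first 4 kb of the gene.

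Flt4 was poor in peaks of all marks around its 5′ end. The first 10% of the gene held 0.230 H3K36me3 peaks per kb in LLC-NR and 1.15 in LLC-R, against means of 2.86 and 3.75 over the first 10% of genes of 20 kb or longer. It held 1.38 and 0.690 H3K4me3 peaks per kb, against 3.20 and 3.01. The 20 kb upstream held 18 H3K4me3 peaks in both lines and the 20 kb downstream 40 and 43. The step into the gene was at percentile 98.0 to 99.4 in the 8 libraries, whichever the mark. Beside this, 45.2% of the 32-bp words of the Flt4 promoter, 54.6% of those of the first 10% of the gene and 52.8% of those of the 20 kb upstream occur more than once in mm9. In the promoters of the other 4 genes, 0% to 0.933% did. The authors kept uniquely mapped reads, and the part of repeated sequence in the low numbers of Flt4 was not tested. In the other steps of 10% along Flt4, H3K27me3 was 3.22 to 4.83 peaks per kb in LLC-NR, and repeated words were 10.02% of the whole gene body.

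The next question was how the 5 genes differed between LLC-R and LLC-NR. In promoters, each number of peaks was divided by the mean of all promoters of its library, with 10% of the mean added to both sides, and a log2 ratio of 0.32 or more in either direction is called past. With so few peaks, this threshold is often passed by 1 or 2 peaks. For H3K4me3, 2 of the 5 promoters were past it on the lower side in LLC-R, against 19.3% of all promoters, and none on the higher side, against 21.0%. These were Nrp1 with 0.686 times its LLC-NR level and Kdr with 0.733 times. Counted from 2 kb upstream to 2 kb downstream, the log2 ratio of Kdr turned from -0.45 to 0.19. For H3K9ac, 2 were lower (background 14.8%), Flt4 with 0.609 times and Nrp2 with 0.661 times, and none was higher (background 18.3%). Both H3K9ac calls were lost in the wider window, with log2 ratios of -0.23 and -0.03. For H3K27me3, 3 were lower (background 15.0%), Kdr and Nrp2 with 0.622 times and Flt1 with 0.734 times, and none was higher (background 19.8%). For H3K36me3, 3 were lower (background 25.0%), Flt1, Nrp1 and Nrp2 with 0.521 to 0.670 times. Of these, Nrp2 held 4 peaks in both lines, and its ratio came from the mean alone, 3.19 in LLC-NR and 4.96 in LLC-R. On the higher side were 2 promoters (background 30.6%). The higher ones were Kdr, which went from 3 peaks to 6, and Flt4, for which no ratio is given because LLC-NR had 0 peaks and LLC-R 3.

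The difference of 2 H3K27me3 peaks in Kdr and Nrp2, lower in LLC-R, stood against a mean that was higher in LLC-R by 0.893 peaks. A number lower by 2 or more was found in 3.49% of promoters. For H3K4me3, the number in Nrp1, lower by 3, stood against a mean change of -0.31, and 5.29% of promoters were lower by as many. For H3K9ac, the number in Nrp2, also lower by 3, stood against a mean change of -0.55, and 6.40% of promoters were lower by as many. These shares are not adjusted for the number of peaks in LLC-NR.

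In gene bodies, the ratio of peaks per kb in LLC-R to LLC-NR was taken relative to the median of genes of 20 kb or longer. This median was 0 for H3K4me3, -0.13 for H3K9ac, 0.45 for H3K27me3 and 0.28 for H3K36me3 on the log2 scale, and a ratio of 1.2 or more in either direction is called past. For H3K27me3, 4 of the 5 genes were past it on the lower side, against 26.0% of genes, and none on the higher side, against 20.6%. Kdr was at -0.40 (interval -0.70 to -0.09) with 175 peaks in LLC-NR against 182 in LLC-R. Flt4 was at -0.39 (interval -0.70 to -0.07) with 166 and 174. Nrp1 was at -0.32 (interval -0.49 to -0.16) with 576 and 630. Flt1 was at -0.29 (interval -0.45 to -0.14) with 627 and 700. Their numbers of peaks were thus higher in LLC-R as counted, by less than in the median gene. Nrp2, with 307 and 428 peaks, was at 0.03 (interval -0.19 to 0.24). Taken relative to the 1 Mb on either side of each gene, none of the 4 was past the threshold (-0.07 to -0.19), and Nrp2 was past it on the higher side at 0.36.

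For H3K36me3, Flt4 was past the threshold on the higher side at 0.42 (interval 0.04 to 0.81), against 17.7% of genes, with 92 peaks in LLC-NR against 150 in LLC-R. Kdr was at 0.19 (interval -0.15 to 0.54) and Flt1 at 0.18 (interval 0.01 to 0.36). Nrp1 was at -0.14 (interval -0.31 to 0.03). Nrp2 was at -0.25 (interval -0.43 to -0.06), just inside the threshold, and none of the 5 was past it on the lower side, against 2.86% of genes. The 3 receptors were above the median gene and the 2 neuropilins below it. For H3K4me3, the ratios ran from -0.08 (Nrp2) to 0.16 (Flt4), and none was past the threshold in either direction (background 5.03% lower and 6.8% higher). For H3K9ac they ran from -0.03 (Flt1) to 0.05 (Kdr), again with none past it (background 1.05% lower and 0.629% higher).

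These ratios varied with the level a gene had in LLC-NR. That level is also the denominator of the ratio, so part of this relation is built in. How large that part is was not tested. When genes of 20 kb or longer were split into 5 groups of like size by their H3K27me3 level in LLC-NR, 93.9% of the highest group were past the threshold on the lower side, with a median of -0.35. Flt1, Kdr, Flt4 and Nrp1 belong to that group, and Nrp2 to the middle one, whose median was 0.03. For H3K36me3, 73.6% of the lowest group, to which Flt4 belongs, were past it on the higher side (median 0.36). Flt1 and Kdr belong to the next group (median 0.17), Nrp1 to the last but one (median -0.11) and Nrp2 to the highest (median -0.21). The counting interval of each of these 10 ratios includes the median of its group. Because these intervals treat peaks as independent and are wide, they cannot decide whether a gene differs from genes of like level in LLC-NR. The 5 groups were chosen after the ratios had been seen. For these same marks, the LLC-R libraries held more peaks, 9101721 against 7245090 for H3K27me3 and 8747519 against 6432447 for H3K36me3, and the authors also list more uniquely mapped reads for LLC-R. The part of depth in these ratios was not tested.

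The surroundings of the genes were set against the same median of gene bodies. For H3K27me3, the 1 Mb on either side was below this median for all 5 genes, from -0.19 (Flt4) to -0.34 (Nrp2). As counted, the surroundings of all 5 genes gained peaks, as around Flt1 (6892 to 8098) and Nrp2 (7357 to 7981). How other stretches of 1 Mb compare with the median of gene bodies was not tested. Nrp2 differed from its surroundings, with 0.03 inside the gene and -0.34 outside. For H3K4me3, the surroundings of Nrp2 were at -0.23 and the gene at -0.08. For H3K36me3, the surroundings of Flt4 were at 0.10, below the 0.42 of the gene.

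**Figure D5:**
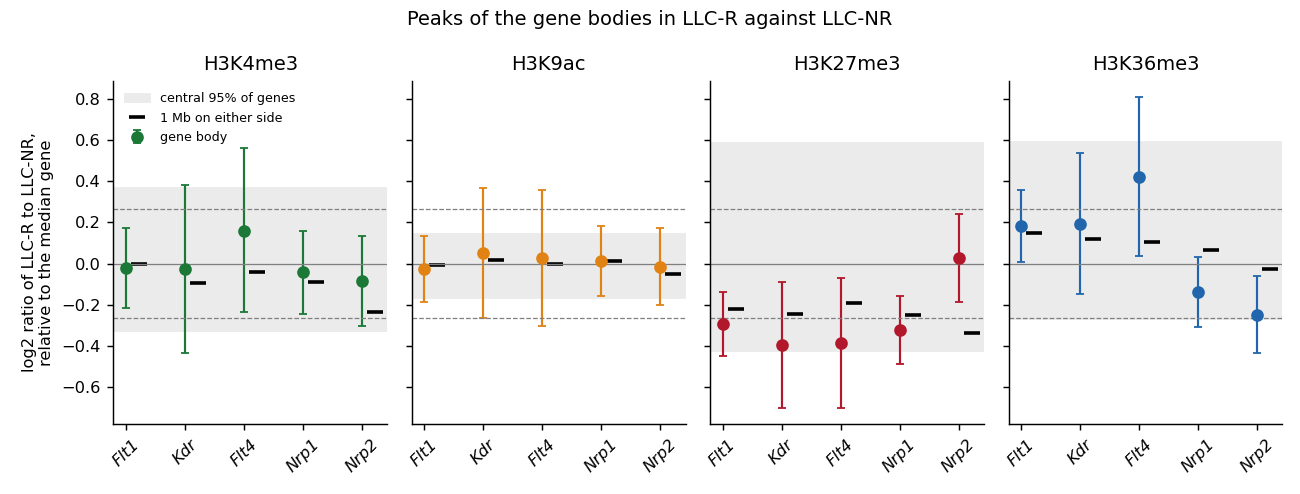
Log2 ratio of peaks per kb of gene body in LLC-R to LLC-NR relative to the median gene, with exact 95% counting intervals, the ratio of the 1 Mb on either side as black bars, the central 95% of genes of 20 kb or longer in grey and dashed lines at the 1.2-fold threshold. For H3K27me3, Flt1, Kdr, Flt4 and Nrp1 lie from -0.29 to -0.40 and Nrp2 at 0.03 with its surroundings at -0.34.

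The other genes of the pathway are given by counts and medians. The 5 VEGF ligands had median promoter numbers of 5 (LLC-NR) and 6 (LLC-R) for H3K4me3, from Vegfb, which binds VEGFR-1, with 6 in both lines to Figf (VEGF-D), a ligand of VEGFR-3, with 2 and 4. Of the ligand promoters, 3 were past the threshold on the higher side for H3K4me3 (background 21.0%) and none on the lower (19.3%). For H3K27me3, 2 were higher (background 19.8%) and 1 lower (15.0%). In the 2 ligand genes of 20 kb or longer, no gene body was past the threshold for any mark.

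The list of class 3 semaphorins and of A-type and D1 plexins, which includes partners of the neuropilins, had 12 genes. Their promoter medians were 6 and 5 H3K4me3 peaks, the same as for the receptors. Summed over both lines, Plxna3 (8 and 5) and Sema3e (7 and 6) were highest, and Sema3g (5 and 3) and Sema3c (3 and 5) lowest. For H3K4me3, 4 promoters were lower (background 19.3%) and 2 higher (21.0%), and for H3K27me3 none was lower (15.0%) and 3 were higher (19.8%). Relative to the median gene, 2 of the 9 gene bodies of 20 kb or longer were lower (background 26.0%) and 2 higher (20.6%) in H3K27me3. The median ratio of the 9 was -0.01. The median gene body percentiles of all 12 were 59.4 and 57.7 for H3K27me3 and 49.1 and 58.5 for H3K36me3.

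Genes of signalling below the receptors, kinases such as Src and adaptors, had middle H3K27me3 and high H3K36me3 over their bodies. Of 22 listed, 21 were found. Their median gene body percentiles were 48.5 in LLC-NR and 43.3 in LLC-R for H3K27me3, and 73.4 and 79.6 for H3K36me3. Relative to the median gene, none of the 17 genes of 20 kb or longer was lower (background 26.0%) in H3K27me3 in LLC-R and 5 were higher (20.6%). The median ratio of the 17 was 0.06. For H3K36me3, 1 was lower (background 2.86%) and none was higher (17.7%). Summed over both lines, promoter H3K4me3 was lowest in Src (4 peaks in LLC-NR against 2 in LLC-R).

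Endothelial markers, genes that mark the cells in which VEGF receptors are best known, had median gene body levels near those of the receptors. Their median gene body percentiles were 78.7 and 78.2 for H3K27me3 and 44.8 in both lines for H3K36me3. Relative to the median gene, 6 of the 8 genes of 20 kb or longer were lower in H3K27me3 (background 26.0%) and 1, Eng, was higher (20.6%). By the same ratio, 4 were higher in H3K36me3 (17.7%). Erg had 1 promoter peak of H3K4me3 in both lines, and Eng had 7 and 6. The gene body of Eng went against the medians of its list. It was at percentiles 24.2 in LLC-NR and 49.5 in LLC-R for H3K27me3, and 80.3 and 93.0 for H3K36me3. The 6 genes of unrelated tissues were also high in H3K27me3, with medians of 85.2 and 79.9, and low in H3K36me3, with 37.2 and 32.1. The 6 ubiquitously expressed genes were low in H3K27me3, with medians of 21.2 and 25.7. For leukocyte markers the H3K27me3 medians were 76.1 and 72.2, for fibroblast markers 80.6 and 86.4, and for lymphatic endothelial markers 89.4 and 89.9. Carcinoma epithelial markers were at 91.2 and 84.3 and lung epithelial markers at 81.4 and 80.6. At 20 kb or longer, H3K27me3 in LLC-R was also lower relative to the median gene in 4 of 4 leukocyte and 2 of 4 fibroblast markers. As counted, these leukocyte and fibroblast markers had more peaks per kb in LLC-R. Relative to the median gene, H3K27me3 was lower in 1 of 2 lymphatic endothelial markers, 1 of 1 carcinoma markers and 1 of 2 genes of unrelated tissues. Of 3 ubiquitously expressed genes, none was lower and 1 was higher. The background of 26.0% is for genes of any LLC-NR level, and 93.9% of the highest group by that level were lower. No promoter of any of these lists had 0 peaks of H3K4me3 or H3K9ac, so peak numbers do not show which cell types were absent. The part of cell composition in the differences between LLC-R and LLC-NR was not tested.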

How the data were processed

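ChIP-seq libraries of H3K4me3, H3K9ac, H3K27me3 and H3K36me3 from LLC-NR and LLC-R isografts were analysed, with 1 library per line and mark. Per the labels and methods, the authors aligned the sequences with Bowtie 0.12.7 against mm9, allowed up to 2 mismatches, retained reads with a unique position and ran GeneTrack on every library separately to find peaks. The GeneTrack settings are not given in the sources used here. The deposited files give the start and end of each peak in base pairs, with no height, strand or read count, and all peaks are 147 bp wide. No input library was used here, and read depth was not used.

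Gene models came from GENCODE vM1 and sequence from NCBIM37 (mm9). Each of 22359 protein-coding genes was given the TSS shared by most of its protein-coding transcripts, the upstream one in ties. A peak was counted where its midpoint lay. Promoters reached 1 kb before and 0.5 kb past the TSS, and gene bodies from the TSS to the gene end. CpG classes follow the rule of the study (500-bp windows, G/C of 55%, O/E thresholds of 0.6 and 0.4). Levels are percentiles among all genes of a library, with ties placed midway. Gene body ratios are relative to the median of genes of 20 kb or longer. Intervals are exact Poisson intervals for counts and Clopper-Pearson intervals for shares and ratios, at 95%. Because peaks of a library cannot overlap, numbers of peaks vary less than independent counts. No p-value was computed. Promoters and gene bodies called past a fold are a description of 2 libraries.

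The 5 genes and all lists were chosen with earlier results of these data known. Of the lists, the genes with the highest and lowest promoter H3K4me3 were named, apart from a few genes that are not reported here. The alternatives covered the promoter window, the TSS, the overlap of peaks, the background genes, G+C content, the surroundings, the threshold and the pseudocount. Counting, percentiles and the fold threshold were tested on simulated data, and the intervals were not. The tools were NumPy 2.4.6, pandas 2.3.3, SciPy 1.17.1 and Matplotlib 3.10.9, run under Python 3.11.15.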

Additional observations from a re-analysis of the deposited data

How the results depend on the processing

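Peak numbers without heights, no replicate and no input limit these results. Of 140 recomputed medians, counts and shares, 126 stayed within counting error or within 1.5 times the reported count, and of 440 recomputed values of single genes, 426 did. Counting error spans much of the percentile scale for promoters, so these totals do not show that the values are stable. For H3K27me3 in LLC-R, the median promoter percentile was 30.7 as reported and 73.7 from 2 kb upstream to 2 kb downstream. That move was still within counting error. The median gene body percentile of H3K36me3 in LLC-NR, 43.1 as reported, was 33.0 against genes of 20 kb or longer and 60.4 without Flt4, an alternative added after seeing the data. Relative to the 1 Mb on either side, 0 gene bodies in place of 4 were lower and 1 in place of 0, Nrp2, was higher in H3K27me3. At a fold of 1.1, 1 gene body was higher in H3K4me3 in place of 0, and for H3K36me3 3 were higher in place of 1 and 2 lower in place of 0. With the G+C trend taken out, 1 gene body was lower in H3K36me3 in place of 0. In promoters from 2 kb upstream to 2 kb downstream, the counts were 1 lower in place of 2 for H3K4me3, 0 lower in place of 2 for H3K9ac and 1 higher in place of 2 for H3K36me3, and the H3K4me3 log2 ratio of Kdr reversed from -0.45 to 0.19. With the most upstream TSS, 1 promoter was higher in place of 0 for H3K4me3 and 1 lower in place of 2 for H3K9ac. With a pseudocount of 50% of the mean, 1 was higher in place of 2 for H3K36me3. The cause of these changes was not tested, apart from the threshold and the pseudocount, which change the calls by construction. The split by the LLC-NR level, the ratio of marks, the step at the TSS and the repeated words were also chosen after seeing the data. No paired analysis was possible because there is 1 library per line and mark.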

Other observations

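Short protein-coding transcripts of Flt1 and Nrp2 end before the last exons of the gene, which allows the shared 5′ part of these genes to be set against the 3′ part of the long transcript. In Flt1, H3K27me3 was 4.05 peaks per kb (interval 3.65 to 4.49) over the 90.8 kb shared with Flt1-002 and 3.52 (interval 3.11 to 3.98) over the 73.6 kb beyond it in LLC-NR. In LLC-R, the values were 4.29 and 4.21. H3K36me3 in Flt1 was 2.74 and 2.88 in LLC-NR, and in LLC-R it was 3.92 and 3.82. In Nrp2, H3K36me3 was 4.16 peaks per kb over the 93.3 kb shared with Nrp2-004 and 3.96 over the 21.7 kb beyond it in LLC-NR. In LLC-R, they were 4.22 and 4.24. The intervals of the 2 parts overlapped in each of these pairs. These intervals treat peaks as independent and are wide, so whether the 2 parts differ could not be decided.

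In Kdr, exons had more peaks per kb than introns in all 8 libraries, as for H3K27me3 in LLC-R with 5.22 (interval 3.69 to 7.17) against 3.75. For H3K36me3, exons were above introns in 9 of the 10 values of the 5 genes, and for H3K4me3, H3K9ac and H3K27me3 in 7 of 10 each. No interval of the exons excluded the level of the introns, but these intervals treat peaks as independent and are wide. Whether exons and introns differ could not be decided.

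The genes of 20 kb or longer with the gene body percentiles most like those of each of the 5 genes over the 8 libraries, by Euclidean distance, were Prr5l, Mtus1 and Fbxl13 for Flt1 (distances of 8.29 to 9.88 percentile points) and March3 and Dapk1 for Kdr (12.43 and 12.44). They were Pkd1l2, Gucy2c and Slc44a5 for Flt4 (11.9 to 16.5), Mlf1, Xrcc5 and Lrrc17 for Nrp1 (16.5 to 16.8) and Usp40 and Erlin1 for Nrp2 (9.29 and 10.7). Among the 5 genes themselves, the nearest pair was Kdr and Flt4 (36.8 points) and the farthest Flt4 and Nrp2 (125 points). Of all such genes, 13.3% were nearer to Kdr than Flt4 was.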
